A study of Mus musculus with 33 samples.

Results

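The Iroquois homeobox genes Irx1, Irx2, Irx3, Irx4, Irx5 and Irx6 encode a family of transcription factors, and their transcript levels were read in 33 libraries of mouse colon organoids. The 6 genes were found by their Ensembl identifiers among the 32285 identifiers of the count files. Irx3 was selected on its measured values, as a gene whose level changed strongly between lines, and the other 5 were taken as the rest of the family, whatever their values. Differences of Irx3 between lines are therefore given as a description, with no test.

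The libraries were made by QuantSeq, which reads the 3′ end of messenger RNA, from 8 groups. In vivo AKP (6 libraries) were organoids grown from colon tumours of young adult mice of the AKP genotype, which carries conditional alleles that include Apc fl/fl and Trp53 fl/fl, in which tamoxifen had activated the Cdx2-creERT2 recombinase, driven by an intestinal epithelial promoter. Mini-colon AKP #v, #iv, #iii, #ii and #i (3 libraries each) were lines recovered from tumours that arose in mini-colons, colon epithelia grown as tubes in microfluidic devices, after OptoCre, a Cre recombinase switched on by doxycycline and blue light, had been activated. Line #v was described as enriched for crypt tumours and line #i for lumen tumours. Organoid AKP (6 libraries) carried the same OptoCre-induced recombination but were kept as ordinary organoids. Control (6 libraries) were non-induced organoids with the same conditional alleles and no treatment. The OptoCre module was delivered by lentivirus, and all lines were cultured as organoids and deprived of growth factors before RNA was taken. The labels give no strain and tie no library to an animal or to a separately generated line, so a p-value here speaks only of the scatter among libraries, part of which may be technical.

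Library totals lay between 2438672 and 8256526 counts, with a median of 3748649. The library codes carry a letter, E or F, whose meaning is not given in the sources used here. Replicates 1 to 3 of in vivo AKP, organoid AKP and control were E and replicates 4 to 6 were F, whereas mini-colon AKP #i, #ii and #iii were E only and #iv and #v were F only. Between lines that differ in letter, the line and the letter cannot be told apart. The 8 colon epithelial markers summed to 2410 to 2920 CPM, a count per gene scaled to a common library size, in in vivo AKP libraries, 2100 to 2820 in mini-colon AKP, 2360 to 2950 in organoid AKP and 9470 to 10600 in control. Among them Cdx1 was at 0 in in vivo AKP and in mini-colon AKP #i and #iii. The 6 fibroblast markers summed to at most 1.53 CPM in any library, with Lum at 0 in all, and the 5 immune markers summed to at most 0.59 CPM. Trp53 tags stood at 19.2 to 34.2 CPM in the libraries labelled in vivo AKP, 1.97 to 11.7 CPM in mini-colon AKP, 1.07 to 3.78 CPM in organoid AKP and 14.4 to 19.1 CPM in control. A 3′ tag does not read whether the floxed part of a gene is gone, so these values do not check the genotype in either direction.

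Iroquois proteins are homeodomain transcription factors of the TALE class, which carry a short insertion in the homeodomain, and they pattern the neural tube, heart, limb and other tissues in the embryo. Mammals hold them in a pair of gene clusters that arose by duplication, IrxA with Irx1, Irx2 and Irx4, and IrxB with Irx3, Irx5 and Irx6. In the fly intestine and in human colorectal cancer cells, Iroquois factors have been reported to dampen TGF-beta signalling, a pathway that restrains epithelial growth. IrxB lies beside Fto, a gene whose introns hold enhancers that contact Irx3 and Irx5.

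In the GRCm39 assembly with GENCODE M39, Irx3 lay on the minus strand of chromosome 8 at 92525153 to 92528695, Irx5 on the plus strand at 93084253 to 93102914 and Irx6 on the plus strand at 93400916 to 93407584. The start of Irx5 was 555.6 kb from that of Irx3. On chromosome 13, Irx1 lay on the minus strand at 72106040 to 72111848, Irx2 on the plus strand at 72776906 to 72782317 and Irx4 on the plus strand at 73407700 to 73417745. Each of Irx2 to Irx6 was overlapped by an antisense non-coding gene: Irx3 by Irx3os over 1656 bases, Irx5 by Crnde over 84 bases around their shared, head-to-head start, Irx6 by Gm45505 over its whole 6669 bases, Irx2 by Gm20554 over 843 bases and Irx4 by Gm61548 over 9274 bases. Whether the counting used strand is not given in the sources used here, so reads inside an overlap cannot be told apart. The overlaps of Irx2, Irx3 and Irx5 lie at their starts, whereas QuantSeq reads the 3′ end. That of Irx4 stops before the end of the gene, and that of Irx6 covers it. Where the reads fell along these genes was not examined. Irx3os, Gm45505 and Gm20554 were themselves near 0, with at most 23 counts over the libraries of any line.

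Promoter windows of 250 bases before to 50 bases after the start were found for 3 of the 6 genes, Irx2, Irx3 and Irx4, in the RefSeq table for GRCm38.p6. Those of Irx3, the member with the widest range of levels in CPM, and of Irx4, which stayed near 0 counts, are shown because they differ in CG content, with every CG step in capitals. The Irx3 window is chr8:91801605-91801904 on the minus strand and the Irx4 window is chr13:73260247-73260546 on the plus strand, both written 5′ to 3′ on the gene's strand.
Irx3: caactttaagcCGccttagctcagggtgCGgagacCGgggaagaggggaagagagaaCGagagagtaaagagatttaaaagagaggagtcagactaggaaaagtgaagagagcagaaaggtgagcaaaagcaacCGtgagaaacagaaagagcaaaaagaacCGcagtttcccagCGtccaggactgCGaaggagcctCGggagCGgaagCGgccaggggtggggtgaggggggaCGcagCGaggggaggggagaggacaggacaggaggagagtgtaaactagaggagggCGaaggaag
Irx4: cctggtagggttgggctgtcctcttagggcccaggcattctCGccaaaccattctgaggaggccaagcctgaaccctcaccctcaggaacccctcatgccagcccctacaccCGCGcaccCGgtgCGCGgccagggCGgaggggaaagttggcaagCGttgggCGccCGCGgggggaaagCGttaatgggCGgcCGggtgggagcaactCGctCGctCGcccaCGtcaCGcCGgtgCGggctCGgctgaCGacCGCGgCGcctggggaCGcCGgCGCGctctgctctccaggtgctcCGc

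The Irx3 window held 14 CG steps at 56.0% GC and the Irx4 window 31 at 70.7% GC, against a median of 7 steps and 52.7% GC over 32851 such windows. The Irx2 window, at chr13:72628570-72628869, held 25 CG steps at 69.0% GC. None of the 3 windows held CTTTG, the core read by the Wnt effectors TCF and LEF, TTTAT, a core bound by the intestinal factor CDX, ACANNTGT, a palindrome bound by Iroquois proteins, or TATAAA, searched on both strands. These letters were present in 53.9%, 40.0%, 7.4% and 13.6% of all windows. No match says only that the letters are not in these windows.

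In CPM, Irx3 spanned the widest range of the family, and its lines fell into an order with little overlap. Its levels, in CPM scaled by the trimmed mean of M values (TMM), were 7.30, 6.53, 8.45, 7.67, 11.2 and 8.07 in the libraries labelled in vivo AKP. They were 28.9, 32.3 and 26.7 CPM in mini-colon AKP #v and 24.5, 21.7 and 23.3 CPM in #iv. Mini-colon AKP #iii had 52.2, 50.3 and 63.8 CPM, #ii had 5.17, 7.10 and 6.72 CPM, and #i had 182, 162 and 146 CPM. Organoid AKP libraries lay between 116 and 143 CPM with a median of 128, and control libraries between 3.15 and 5.0 CPM with a median of 4.48. From high to low the order of the means was #i (164 ± 17.9, SD), organoid AKP (128 ± 9.36), #iii (55.4 ± 7.33), #v (29.3 ± 2.80), #iv (23.1 ± 1.37), in vivo AKP (8.20 ± 1.61), #ii (6.33 ± 1.02) and control (4.33 ± 0.635). The only neighbours in this order whose libraries overlapped were in vivo AKP and #ii. In bulk samples, fewer cells that express a gene and less RNA per cell cannot be told apart.

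On the log2 scale of the fit across 13606 genes, Irx3 was lower in in vivo AKP than in organoid AKP (log2 fold change -4.0, SE 0.11) and 0.85 higher than in control (SE 0.14). Within a letter the first of these differences was -4.11 (E) and -3.88 (F). Organoid AKP stood 4.85 above control (SE 0.12). Against organoid AKP, the mini-colon lines stood at -2.13 (#v), -2.47 (#iv), -1.22 (#iii), -4.32 (#ii) and 0.35 (#i). Mini-colon AKP #v stood at -2.48 against #i. Among lines from mini-colons, #i thus stood slightly above organoid AKP, while #ii overlapped with in vivo AKP.

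**Figure D1:**
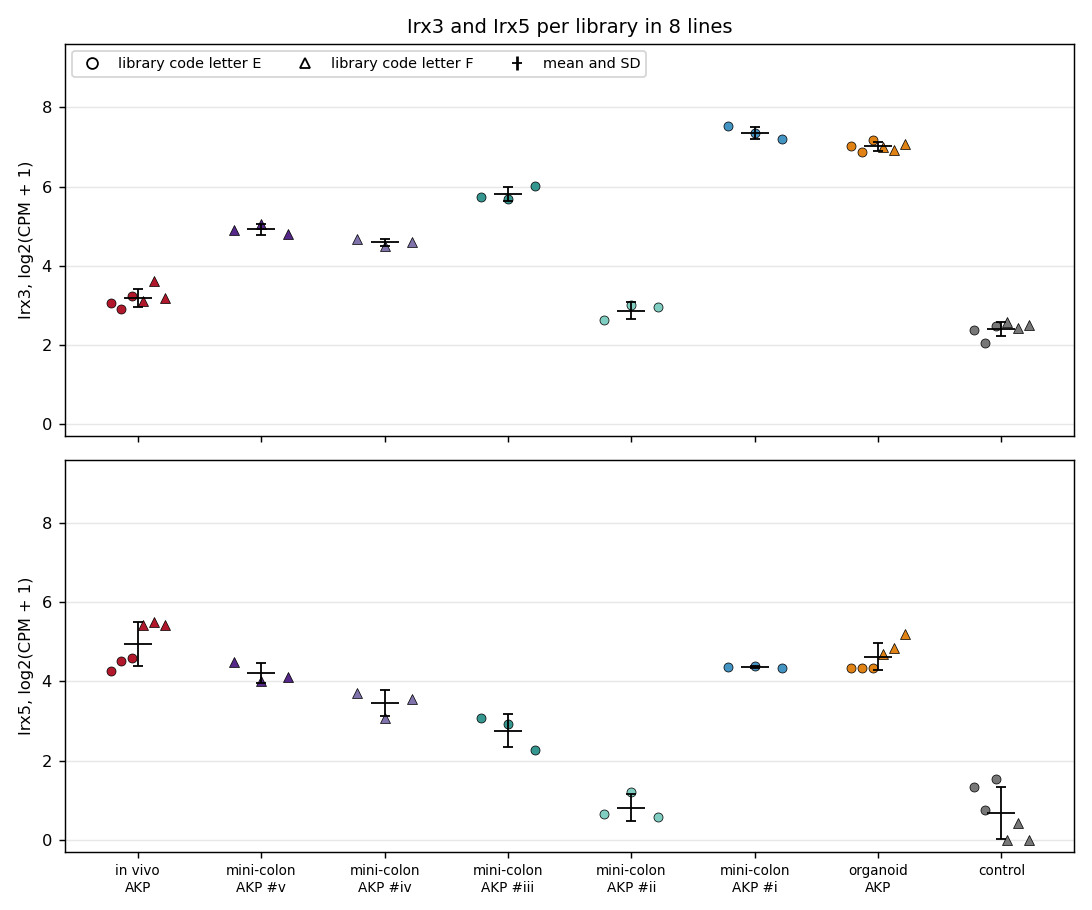
Levels of Irx3 and Irx5 in every library, as log2(CPM + 1) on the vertical axis, by line on the horizontal axis. Circles are libraries with the letter E and triangles those with F, and bars give the mean and SD of a line. Irx3 is low in in vivo AKP (mean 8.20 CPM), mini-colon AKP #ii (6.33 CPM) and control (4.33 CPM), whereas Irx5 is lowest in #ii (0.794 CPM) and control (0.747 CPM) and highest in in vivo AKP (31.9 CPM).

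Irx5, the neighbour of Irx3 in the same cluster, was present in in vivo AKP and organoid AKP alike and nearly absent from control. It had 18.3, 21.7 and 23.2 CPM in in vivo AKP libraries of letter E and 41.9, 44.4 and 41.7 CPM in those of letter F. Mini-colon AKP #v had 21.5, 15.0 and 16.4 CPM, #iv had 12.1, 7.45 and 10.7 CPM, and #iii had 7.46, 6.58 and 3.86 CPM. The values were 0.575, 1.32 and 0.492 CPM in #ii and 19.6, 20.1 and 19.4 CPM in #i. Organoid AKP libraries lay between 19.2 and 35.7 CPM with a median of 22.2, and control libraries between 0 and 1.90 CPM with a median of 0.53. All in vivo AKP and organoid AKP libraries thus stood above all control libraries, whereas in vivo AKP and organoid AKP overlapped. From high to low the means were in vivo AKP (31.9 ± 11.9, SD), organoid AKP (24.4 ± 6.60), #i (19.7 ± 0.384), #v (17.6 ± 3.39), #iv (10.1 ± 2.38), #iii (5.97 ± 1.88), #ii (0.794 ± 0.453) and control (0.747 ± 0.801). Neighbours overlapped throughout this order except #v with #iv and #iii with #ii.

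Irx5 did not pass the test between in vivo AKP and organoid AKP (log2 fold change 0.35, 95% interval -0.13 to 0.83, adjusted p = 0.271, edgeR quasi-likelihood test with Benjamini-Hochberg adjustment over all genes tested). Within the letter E the difference was 0.14 (adjusted p = 0.613), whereas within F it was 0.55 and passed (adjusted p = 0.00143). The difference between these values was not past the threshold (0.404, SE 0.231, adjusted p = 0.229). Of the 3 members tested besides Irx3, which are Irx2, Irx4 and Irx5, none was called in this comparison, in which 34.4% of all genes tested were called, 27.8% with E alone and 50.3% with F alone.

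Against control, Irx5 rose in in vivo AKP (5.93, SE 0.41, adjusted p = 2.01e-14) and in organoid AKP (5.58, SE 0.41, adjusted p = 1.43e-13). Within letters the rise in in vivo AKP was 3.91 (E) and 8.36 (F), and that in organoid AKP was 3.77 (E) and 7.81 (F). The F values rest on 2 counts over the 3 control libraries of that letter, so their size is uncertain. Of all genes tested, 72.2% were called in in vivo AKP against control and 71% in organoid AKP against control. These comparisons share the control libraries.

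The mini-colon lines differed from one another in Irx5 (F test over the 5 lines, adjusted p = 9.54e-07). Irx5 was the single member called in this test, in which 46.7% of genes were called. Against organoid AKP, Irx5 fell by 4.99 in #ii (SE 0.51, adjusted p = 1.89e-08), in which 24.6% of genes were called. It fell by 2.01 in #iii (SE 0.36, adjusted p = 0.000248), in which 16.2% were called. In #iv it fell by 1.29 (SE 0.34, adjusted p = 0.0195), in which 4.9% were called, and this call was lost without any 1 of the 3 #iv libraries (adjusted p = 0.0592 to 0.152). Within a letter the falls were -4.63 (#ii, E), -1.66 (#iii, E) and -1.54 (#iv, F).

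Lines #i and #v, in contrast, did not pass the test. Irx5 stood at -0.33 in #i (95% interval -0.96 to 0.30, adjusted p = 0.517) and at 0.02 within the letter E, and 7.15% of all genes were called in that comparison. In #v it stood at -0.51 (95% interval -1.12 to 0.11, adjusted p = 0.323), with 10.6% of genes called. Within the letter F the difference of #v was -0.78 and passed (adjusted p = 0.00012), with 28.2% of genes called. Between #v and #i the difference was -0.18 (95% interval -0.90 to 0.55, adjusted p = 0.754). No member besides Irx3 was called there, against 24.5% of all genes, and the lines differ in letter.

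The share of Irx5 among all Irx3 and Irx5 counts separated in vivo AKP from every other line, as a description of values that include Irx3. It was 79.6% in in vivo AKP (923 of both genes' counts being Irx5 and 236 Irx3, exact binomial 95% interval 77.2% to 81.9%), with libraries between 71.5% and 84.5%. It was 36.8% (33.5% to 40.1%) in #v, 30.5% (25.8% to 35.6%) in #iv, 10.3% (8.16% to 12.7%) in #iii, 10.4% (5.11% to 18.3%) in #ii and 10.7% (9.32% to 12.2%) in #i. Organoid AKP had 16.9% (15.7% to 18%), with libraries between 12% and 21.1%, and control had 9.56% (5.19% to 15.8%), with libraries between 0% and 29.4%. In the letter E, organoid AKP libraries lay between 12% and 14.1%, below the control libraries at 18.2% to 29.4%, whereas in F they lay between 16.4% and 21.1%, above the control libraries at 0% to 7.41%. The order of organoid AKP and control thus turned with the letter. The intervals cover counting error only. No in vivo AKP library overlapped with a library of another line, and the F lines #v and #iv stood above the E lines #iii, #ii and #i. The share compares lines, not the abundance of the genes, since 3′ priming can differ between transcripts.

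Across the 33 libraries, which are replicates of 8 lines and share their scaling, Irx5 followed Irx3 with a Pearson r of 0.588 (Spearman correlation 0.549) on the log2 CPM scale with a prior count of 2. Without the 6 in vivo AKP libraries r was 0.889 over 27 libraries. The in vivo AKP libraries lay apart, with high Irx5 at low Irx3.

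**Figure D2:**
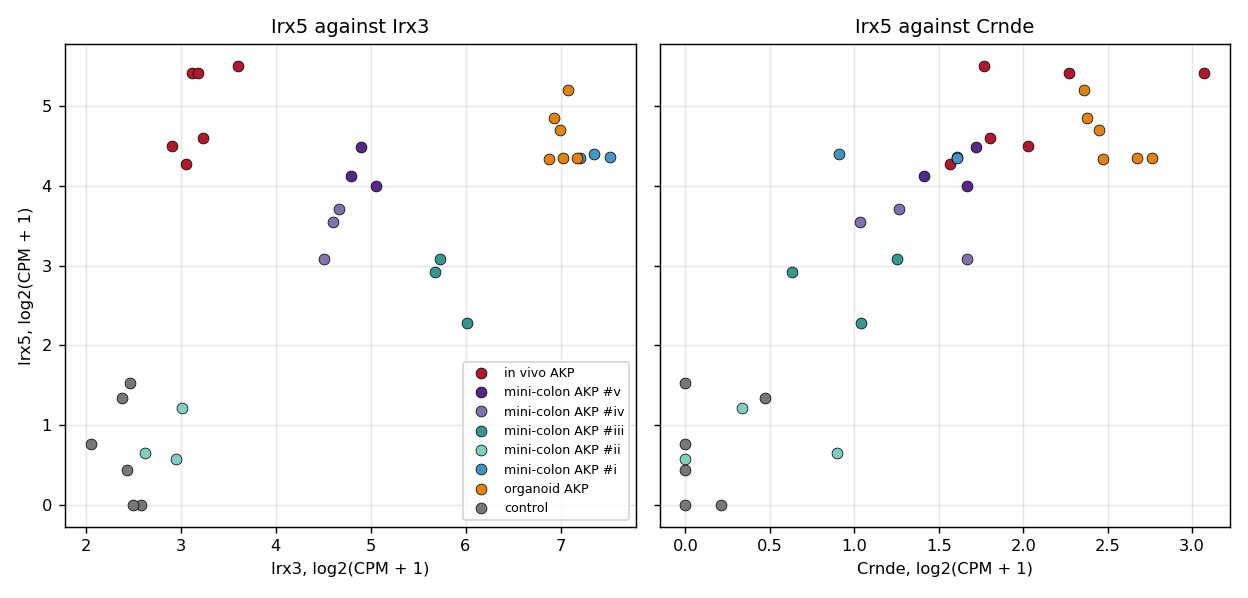
Each point is a library, coloured by line, with Irx5 on the vertical axis against Irx3 in one panel and against Crnde in the other, all as log2(CPM + 1). The in vivo AKP libraries leave the trend with Irx3 (r 0.588 over 33 libraries, 0.889 over the 27 others) but stay on the trend with Crnde (r 0.887).

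Crnde, a long non-coding RNA whose human counterpart is known for being raised in colorectal tumours, starts head-to-head with Irx5. Its levels were 1.96, 3.08, 2.50, 3.83, 2.4 and 7.42 CPM in in vivo AKP libraries. Organoid AKP libraries lay between 4.14 and 5.79 CPM, and control libraries held 2 counts in all. The mini-colon means were 2.04 ± 0.331 CPM in #v, 1.54 ± 0.576 in #iv, 0.994 ± 0.420 in #iii, 0.375 ± 0.442 in #ii and 1.66 ± 0.675 in #i (SD, n = 3 each). Crnde and Irx5 were thus lowest in the same lines, #ii and control. The r of Crnde with Irx5 was 0.887 over 33 libraries and 0.879 without in vivo AKP.

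Crnde did not pass the test between in vivo AKP and organoid AKP (-0.40, SE 0.31, adjusted p = 0.334), but within E it stood at -1.05 (adjusted p = 0.0396) and within F at 0.17 (adjusted p = 0.685). It rose against control in in vivo AKP (5.15, adjusted p = 1.02e-09) and in organoid AKP (5.55, adjusted p = 9.68e-11). Against organoid AKP it fell in all 5 mini-colon lines, by 1.22 in #v (adjusted p = 0.0460), 1.61 in #iv (0.0329), 2.28 in #iii (0.00179), 3.81 in #ii (1.69e-05) and 1.50 in #i (0.0424). All 5 falls also passed within the letter of the line, at -1.10 (#v), -1.49 (#iv), -2.47 (#iii), -3.98 (#ii) and -1.66 (#i).

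The other genes around IrxB did not all move alike. Fto, an RNA demethylase gene, had 32.7 ± 5.99 CPM in in vivo AKP, 28.5 ± 5.57 in organoid AKP and 30.8 ± 5.90 in control (SD, n = 6 each), and passed no test between these lines (adjusted p = 0.301, in vivo AKP against organoid AKP). Rpgrip1l, a gene of the ciliary transition zone that starts beside Fto, had 10.1 ± 3.12 CPM in in vivo AKP and 10.2 ± 2.14 in organoid AKP (adjusted p = 0.923). Mmp2, a secreted protease of stromal cells, had 0 counts in every library. Irx3os was counted 1 time in in vivo AKP, 23 times in organoid AKP and 1 time in control. Among these lines it was thus highest in organoid AKP, as Irx3 was, though from few counts. Gm45336, a predicted non-coding gene at 93192395 to 93196293 on the far side of Irx5, had 7.21 ± 2.67 CPM in in vivo AKP and 0.712 ± 1.10 in organoid AKP (3.53, SE 0.51, adjusted p = 3.13e-06), and 0 counts in control. Within letters its rise was 2.36 (E) and 4.88 (F). It had 33 counts in #v and at most 4 in any other mini-colon line.

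Within 1 Mb of either cluster 74 genes are annotated in the files, of which 25 were tested. In in vivo AKP against organoid AKP 7 rose and 2 fell, with a median log2 fold change of 0.236 against 0 over all genes, of which 34.4% were called. By the smallest p these were Chd9, a chromatin remodeller, with a mean of 55.4 ± 8.94 CPM in in vivo AKP and of 29.2 ± 2.64 in organoid AKP (0.92, adjusted p = 1.61e-07), Nkd2, a Wnt antagonist near IrxA, with 0.294 ± 0.242 CPM in in vivo AKP and a mean of 3.11 ± 0.758 in organoid AKP (-3.13, adjusted p = 7.10e-07), and Gm45336. Both kept their sign and passed within each letter, Chd9 at 0.75 (E) and 1.10 (F) and Nkd2 at -3.58 (E) and -2.68 (F). Against control 8 rose and 6 fell in in vivo AKP, beside 72.2% of all genes called, and 7 rose and 10 fell in organoid AKP, beside 71%. The F test over the mini-colon lines called 16 of the 25, beside 46.7% of all genes, led by Lpcat2 and Lpcat1, which remodel membrane phospholipids, and Chd9. Lpcat2 had 2.66 ± 0.925 CPM in #v and at most 0.454 in the other mini-colon lines, and Lpcat1 had 51.3 ± 3.24 CPM in #v and 24.0 ± 5.77 in #i. Lines #v and #i differ in letter, so for Lpcat1 the line and the letter cannot be told apart.

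**Figure D3:**
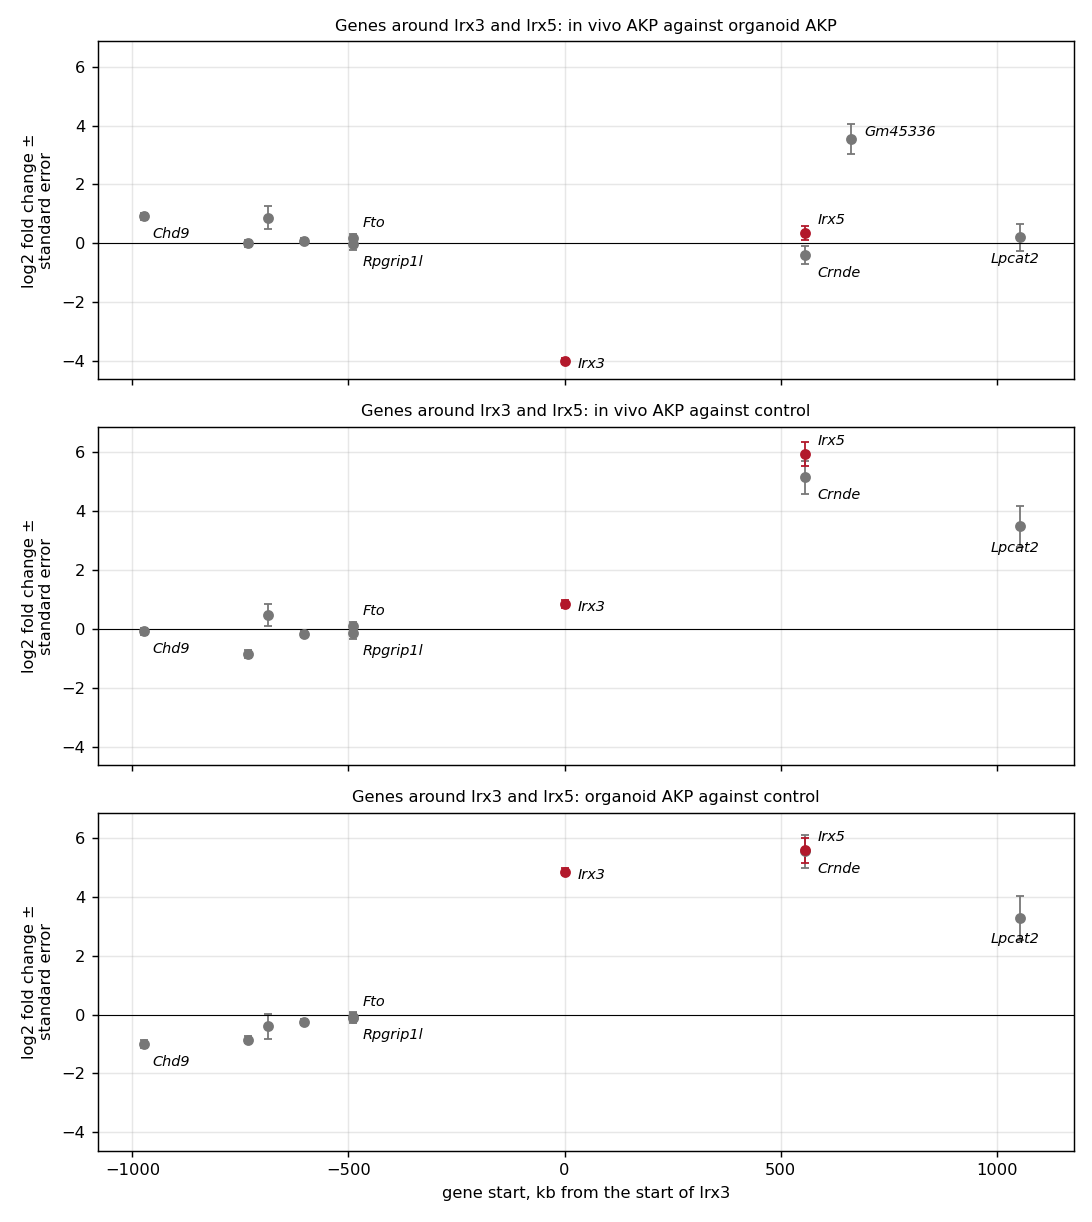
Log2 fold changes with their standard errors for the tested genes around the IrxB cluster, against the distance of their starts from that of Irx3 in kb. The panels show in vivo AKP against organoid AKP, in vivo AKP against control and organoid AKP against control, with Irx genes in red, and genes with a group at 0 counts left out. In the first panel Irx3 stands at -4.0 while Irx5, 555.6 kb away, stands at 0.35.

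The members of IrxA were read from few counts, so that their values limit what can be compared. Irx2 had 1, 3, 0, 13, 2 and 3 counts in in vivo AKP libraries and 1, 0, 3, 6, 3 and 8 in organoid AKP libraries, whereas all 6 control libraries had 0. In the mini-colon lines it had 0, 2 and 3 counts in #v, 0, 1 and 0 in #iii, and 0 in every library of #iv, #ii and #i. Some in vivo AKP and organoid AKP libraries were at 0 as well, so that both overlapped with control.

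A floor of 3 counts was set for the 6 control libraries. The pooled Irx2 level was 6.74 times this floor in in vivo AKP and 6.80 times in organoid AKP. These values take the counts above the floor as exact, and in vivo AKP replicate 4 held 13 of its line's 22. Irx2 passed the filter on low counts, 1 CPM in 3 libraries, only through in vivo AKP replicate 4 and organoid AKP replicates 4 and 6, all of letter F. A difference from a line at 0 was therefore set by the filter, and no test of it is given. Between in vivo AKP and organoid AKP its ratio was 0.991, with a counting interval of 0.52 to 1.89 (adjusted p = 0.986). With the floor of 3 counts set for #ii instead, the pooled organoid AKP level was 3.31 times it, likewise with no test.

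Irx4, known in the heart as a marker of ventricular muscle, had counts in all 6 control libraries, as Irx3 did. It had 1, 1, 0, 16, 3 and 2 counts in in vivo AKP, 0, 1, 0, 3, 2 and 2 in organoid AKP and 4, 4, 3, 2, 6 and 4 in control. The mini-colon lines held 3 counts in #v, 1 in #iv, 0 in #iii, 1 in #ii and 3 in #i. A single in vivo AKP library, replicate 4, thus held 16 of the 23 counts of that line, and it also held 13 of its 22 Irx2 counts.

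With all libraries, no comparison between lines called Irx4. Its ratio was 2.72 (counting interval 1.17 to 7.03) in in vivo AKP against organoid AKP (adjusted p = 0.189), 0.919 (0.49 to 1.71) in in vivo AKP against control (adjusted p = 0.747) and 0.338 (0.131 to 0.782) in organoid AKP against control (adjusted p = 0.0678). Without in vivo AKP replicate 4 the log2 fold change in in vivo AKP against organoid AKP was 0.16 (adjusted p = 0.916), where the alternatives that left out another library gave 1.17 to 1.66. In organoid AKP against control Irx4 passed without control replicate 4 (adjusted p = 0.0313) or replicate 6 (adjusted p = 0.0443). In the letter E its mean was 0.123 CPM in in vivo AKP, 0.108 in organoid AKP and 1.36 in control, and the control libraries were the only ones of that letter at 1 CPM or more, so that it passed the filter there through control alone and no test within E is given.

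**Figure D4:**
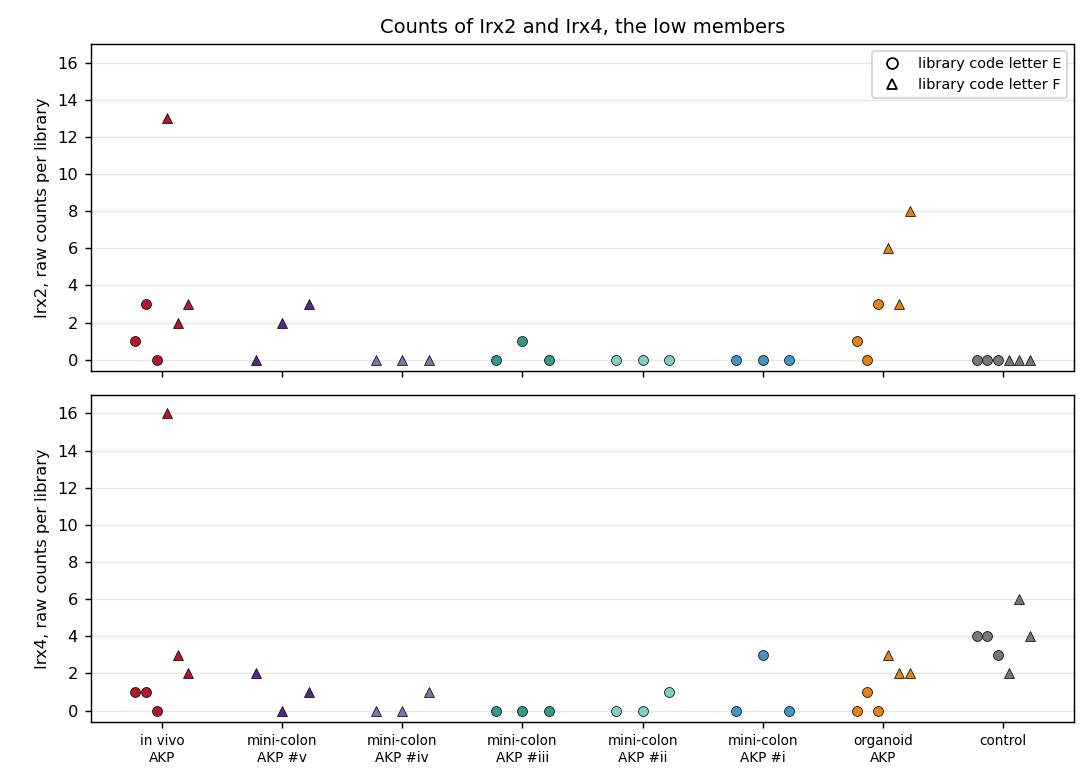
Raw counts of Irx2 and Irx4 in each library (vertical axis) by line (horizontal axis). Irx2 is at 0 in all 6 control libraries, and 1 in vivo AKP library stands apart with 13 counts of Irx2 and 16 of Irx4.

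Irx1 had 0 counts in all 33 libraries, and Irx6 had 1 count, in organoid AKP replicate 1. A total of 0 counts over a line's libraries allows a level, in CPM, of up to 0.1 for in vivo AKP, 0.164 to 0.307 for the mini-colon lines, 0.106 for organoid AKP and 0.109 for control, by the floor of 3 counts and for counting error only. Neither gene was tested. At this depth, expression of Irx1 and Irx6 was not detectable.

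The letter of the libraries moved with Irx5 inside lines. In in vivo AKP, Irx5 had 42.6 ± 1.53 CPM in F and 21.1 ± 2.50 in E (SD, n = 3 each, 1.01, SE 0.15, adjusted p = 1.87e-07), with no overlap. In organoid AKP it had 29.5 ± 5.59 CPM in F and 19.3 ± 0.133 in E (0.61, SE 0.17, adjusted p = 0.00419), and this call was lost without replicate 6 (0.45, adjusted p = 0.0575). In control it was lower in F, with 0.118 CPM against 1.38 CPM in E (-3.40, adjusted p = 0.00189). That comparison rests on 0, 2 and 0 counts in F and 4, 2 and 5 in E. Irx3 did not pass the test in any of these lines, at 0.20 (in vivo AKP, adjusted p = 0.433), -0.03 (organoid AKP, 0.871) and 0.25 (control, 0.593). In in vivo AKP, Irx4 was also higher in F (3.29, adjusted p = 0.00181), but without replicate 4 it no longer passed (2.29, adjusted p = 0.123). Irx2 passed the filter only through F libraries, so no test between letters is given for it. Between letters 47.2% of all genes were called in in vivo AKP, 30.4% in organoid AKP and 22.2% in control.

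The other TALE homeobox genes, whose Meis, Pbx, Pknox and Tgif proteins bind DNA alone or as partners of other homeodomain factors, were followed as a list of 12, of which 11 were tested. In in vivo AKP against organoid AKP 3 rose and 1 fell, beside the 34.4% of all genes called, with a median of 0.142 against 0 over all genes. Meis1 had 5.42 ± 1.70 CPM in in vivo AKP and 1.24 ± 0.564 in organoid AKP (2.21, adjusted p = 2.02e-06), and 1.40 (E) and 3.0 (F) within letters. Meis2 had 26.9 ± 10.7 CPM in in vivo AKP, a mean of 4.77 ± 2.27 in organoid AKP and 0.233 ± 0.182 in control. Its rise in in vivo AKP against organoid AKP was 2.41 (adjusted p = 2.18e-06), and 2.52 within each letter. In this comparison Irx3 stood at -4.0 while these members of the same class were higher.

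Against control, 4 of the 11 rose and 2 fell in in vivo AKP, beside 72.2% of all genes called, and 5 rose and 3 fell in organoid AKP, beside 71%. In the mini-colon lines against organoid AKP, 1 fell in #v, none was called in #iv, 2 fell in #iii, 1 rose and 3 fell in #ii, and 1 fell in #i. Meis2 was among those that fell, with 0.611 ± 0.824 CPM in #v, 0.637 ± 0.253 in #iii and 0.731 ± 0.622 in #ii. It was also lower, without passing, in #iv (-2.24, adjusted p = 0.0525) and #i (-1.80, adjusted p = 0.0816). The F test over the mini-colon lines did not call Meis2 (adjusted p = 0.824). The F test over the lines called 5 of the 11, beside 46.7% of all genes, led by Meis3 (7.66 ± 2.25 CPM in #ii, 1.72 ± 0.536 in #i, adjusted p = 0.000115) and Pbx2 (29.6 ± 1.99 CPM in #v, 15.0 ± 1.84 in #i, adjusted p = 0.000175). For Pbx2 no line passed against organoid AKP of its own letter (adjusted p = 0.0851 to 0.638). In in vivo AKP, 6 of the 11 were higher in F than in E and none lower, beside 47.2% of all genes called.

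**Figure D5:**
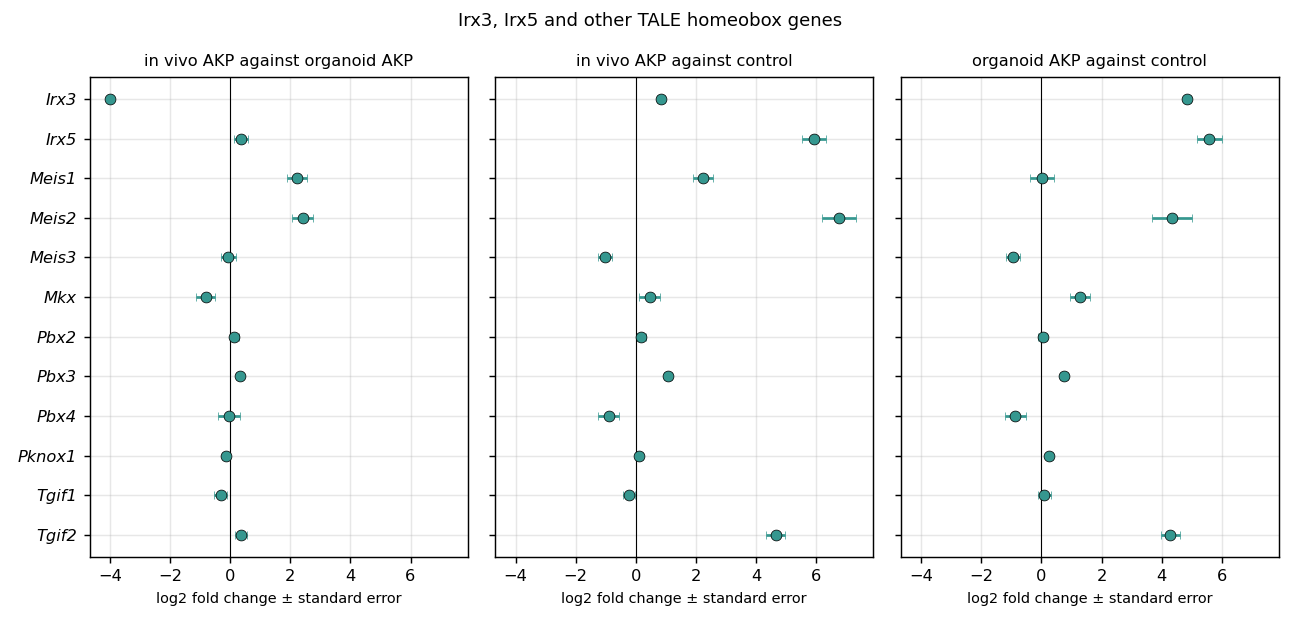
Log2 fold changes with standard errors (horizontal axis) of Irx3, Irx5 and other tested TALE homeobox genes, in panels for in vivo AKP against organoid AKP, in vivo AKP against control and organoid AKP against control. In the first panel Irx3 stands at -4.0, while Meis1 (2.21) and Meis2 (2.41) stand above 0.

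All 20 listed genes of the TGF-beta pathway were tested, and 4 rose and 7 fell in in vivo AKP against organoid AKP, with a median of -0.179 against 0 over all genes, of which 34.4% were called. The 4 include Tgfbr3 (5.25), whose fitted difference between organoid AKP and control was 0 with no SE. A gene at 0 counts in both lines gives such values, so nothing is drawn from its call. Inhba, which encodes a subunit of the ligand activin A, had 3.16 ± 2.0 CPM in in vivo AKP and 40.0 ± 4.67 in organoid AKP (-3.61, SE 0.22, adjusted p = 1.74e-15), with -2.92 within E and -4.90 within F. Ski, a repressor of SMAD proteins, had 54.6 ± 7.14 CPM in in vivo AKP and a mean of 88.8 ± 3.86 in organoid AKP (-0.69, adjusted p = 2.51e-08), with -0.59 within E and -0.74 within F. Tgfb2, a ligand, had 4.83 ± 1.44 CPM in in vivo AKP, 0.495 ± 0.644 in organoid AKP and 8.70 ± 1.54 in control (3.30 against organoid AKP, adjusted p = 2.19e-07), with 2.79 within E and 3.76 within F.

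Against control 3 of the 20 rose and 13 fell in in vivo AKP, beside 72.2% of all genes called, and 4 rose and 7 fell in organoid AKP, beside 71%. The 3 that rose in in vivo AKP include Tgfbr3, with the same limit. The F test over the mini-colon lines called 11 of the 20, beside 46.7% of all genes. Dlc1, which encodes a GTPase-activating protein, had 22.8 ± 1.88 CPM in #ii, the line lowest in Irx3 and Irx5 among the mini-colon lines, and 4.88 ± 1.63 to 9.46 ± 1.68 CPM in the other 4 (adjusted p = 3.69e-06). It rose in #ii against organoid AKP (1.18, adjusted p = 0.000973), and by 1.58 within the letter E. Its level in in vivo AKP, where Irx3 was also low, was 2.69 ± 1.41 CPM. Tgfb3, a ligand, had 11.1 ± 2.59 CPM in #v and 10.3 ± 1.12 in #iv, both F, and 3.22 ± 0.836 to 5.29 ± 1.81 in the E lines (adjusted p = 0.000871). It also rose in #v (1.96) and #iv (1.84) against the F libraries of organoid AKP. Ski had 69.1 ± 5.10 CPM in #v and 106 ± 10.4 in #i (adjusted p = 0.00148 over the 5 lines), and #v and #i differ in letter.

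Of 6 genes reported in other tissues as regulated by Iroquois factors, only Gja1 was expressed enough to be tested, while Gja5, Kcnd2, Cxcl12, Bmp10 and Ucp1 failed the filter. Gja1 encodes the gap junction protein connexin 43, which Irx3 represses in the mouse heart. It had 0.171 ± 0.269 CPM in in vivo AKP, 9.24 ± 8.12 in organoid AKP and 23.8 ± 6.48 in control. It fell in in vivo AKP against organoid AKP (-5.46, SE 0.68, adjusted p = 1.61e-07), with -5.92 within E and -5.17 within F. In organoid AKP it was higher in F than in E (3.06, adjusted p = 2.57e-12). The pooled fit called a fall in #i, #ii and #iii (adjusted p = 0.0168 to 0.0220), but within E these lines stood at -0.26, 0.47 and 0.14 and did not pass (adjusted p = 0.474 to 0.888), whereas #iv and #v fell within F by 2.59 and 3.47.

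The genes whose levels were most like those of Irx3 over the 33 libraries, among 10722 ranked, were Ly6c2 (r = 0.928), Socs6 (0.910), Zfp518b (0.904), Tmem47 (0.865) and Socs5 (0.865). Ly6c2, a GPI-anchored surface protein, had 1.29 ± 1.15 CPM in in vivo AKP, 3.57 ± 0.788 in #ii, 38.4 ± 4.69 in #i, 34.9 ± 11.4 in organoid AKP and 1.46 ± 0.811 in control. Socs6, a suppressor of cytokine signalling, had 89.1 ± 9.52 CPM in in vivo AKP, 110 ± 4.56 in #ii, 181 ± 3.44 in #i, 157 ± 10.5 in organoid AKP and 88.2 ± 11.4 in control. Zfp518b, a zinc finger gene, had 8.78 ± 2.93 CPM in in vivo AKP, 20.6 ± 2.69 in #ii, 57.8 ± 4.25 in #i, 47.9 ± 8.81 in organoid AKP and 4.31 ± 0.746 in control. These genes were picked for their likeness to Irx3, so that their order over the lines follows from the choice. The most opposed were Dtx3l (-0.913), Sel1l3 (-0.889), Atp6v1a (-0.869), Ak3 (-0.864) and Neurl1a (-0.863). Dtx3l, a ubiquitin ligase gene, had 40.4 ± 2.33 CPM in in vivo AKP, 47.9 ± 3.46 in #ii, 27.1 ± 0.826 in #i, 28.7 ± 1.51 in organoid AKP and 51.1 ± 4.70 in control. By rank correlation 2, and by the 8 line means 3, of the top 5 were the same genes. The libraries share lines, so these values describe a pattern over 8 lines.

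Most like Irx5 were Tfap2a (r = 0.915), a transcription factor of surface ectoderm and neural crest, G2e3 (0.893) and Odf2 (0.888). Tfap2a had 26.6 ± 14.6 CPM in in vivo AKP, 0.755 ± 0.412 in #ii, 9.56 ± 2.81 in #i, 24.6 ± 14.0 in organoid AKP and 0.823 ± 0.727 in control. For Irx2 they were Ngfr (0.792), the low-affinity neurotrophin receptor, Dlx3 (0.774), a homeobox gene, and Man1c1 (0.762), and for Irx4 Ago4 (0.833), Trim24 (0.811) and Ncoa2 (0.804). Ngfr had 15.7 ± 3.38 CPM in in vivo AKP, 0.183 ± 0.159 in #ii, 0.324 ± 0.342 in #i, 9.31 ± 5.32 in organoid AKP and 0 in control. The patterns of Irx2 and Irx4 rest on few counts. By rank correlation, 1 of the top 3 genes was the same for Irx5, 0 for Irx2 and 1 for Irx4. By the line means, 0 of the top 3 were the same for Irx5, 1 for Irx2 and 0 for Irx4. Which genes ranked highest for these members thus depended on the measure.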

How the data were processed

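RNA from 33 organoid libraries was read by QuantSeq 3′ sequencing. The authors aligned reads to GRCm39 with STAR and worked in R 4.1.2; the deposited files hold raw counts per Ensembl gene, and the annotation, counter and strand setting are not given in the sources used here. Of 32285 identifiers 31674 were paired with a symbol, and the 611 others held 6.85% of counts, 6.77% in 1 identifier. The 13606 genes that reached 1 CPM in 3 or more libraries were tested on the counts with edgeR 4.0.16 in R 4.3.3 (robust quasi-likelihood, TMM, 1 coefficient per line, all 33 libraries), with Benjamini-Hochberg adjustment at 0.05. Mini-colon lines were compared by an F test. Contrasts within a library letter and between letters within a line came from separate fits of the same kind. CPM were computed from the deposited counts, scaled by TMM. The script was tested on simulated data.

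Members and lists were chosen with earlier results of these data known. Of each list, up to 3 genes with the smallest p in in vivo AKP against organoid AKP and in the F test were named, with the genes next to an Irx gene; like genes were ranked by Pearson r of log2 CPM (prior count 2) among tested genes with at least 5 CPM in their highest line. Gm45336 was both a neighbour and among the 3 smallest p. Alternatives were DESeq2 1.42.0, limma-voom 3.58.1, RLE factors, library totals, no filter, only the libraries compared, each letter alone, a replicate block and leaving out each library. Marker lists for enteroendocrine, endothelial, muscle, and enteric neuron and glial cells summed to at most 20.6, 4.40, 1.15 and 8.17 CPM in any library. An item that is counted in the lists but not named is not reported here. Python 3.11.15 drew the figures.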

Additional observations from a re-analysis of the deposited data

Results flagged for a closer look

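Irx5 differed among the 5 mini-colon AKP lines (adjusted p = 9.54e-07), with means of 17.6 CPM in #v, 10.1 in #iv, 5.97 in #iii, 0.794 in #ii and 19.7 in #i. The effect of the library letter on Irx5, F against E, differed between in vivo AKP and control (4.42 on the log2 scale, SE 0.862, adjusted p = 4.53e-05) and between organoid AKP and control (4.01, SE 0.862, adjusted p = 0.000694), with control at 0.118 CPM in F and 1.38 CPM in E. These control values rest on 0, 2 and 0 counts in F and 4, 2 and 5 in E. The effect of the letter on Irx4 differed between in vivo AKP and control (4.39, SE 1.19, adjusted p = 0.00296), with 1.33 CPM in F and 0.123 in E of in vivo AKP and 0.640 in F and 1.36 in E of control. Replicate 4 held 16 of the 23 Irx4 counts of in vivo AKP, and this difference was not refitted without it. Irx6 stood apart in organoid AKP replicate 1, at 0.34 CPM from 1 count, where the 5 other libraries of the line had 0. It was the single library set apart in 15 groups examined, where chance sets apart about 1 in 20 groups of normally distributed values. A lone count among libraries at 0 is always set apart by this rule, so nothing is drawn from it. What the letter stands for, and its part in these differences, was not tested.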

How the results depend on the processing

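Irx5 kept its direction and its side of the threshold in the comparisons of in vivo AKP and organoid AKP with control, and of #ii and #iii with organoid AKP, under every alternative run. Its other comparisons changed as follows. In in vivo AKP against organoid AKP it passed with the letter F alone (0.55, adjusted p = 0.00143), and in #v against organoid AKP likewise (-0.78, adjusted p = 0.00012). In #i against organoid AKP its sign turned with a replicate block (0.088) and within E (0.0235). In #iv against organoid AKP it ranged from -1.43 to -1.12 when a library was left out (adjusted p = 0.0157 to 0.152) and lost its call without any 1 of the #iv libraries. Between letters within organoid AKP it ranged from 0.45 to 0.71 and Irx3 from -0.098 to 0.053. Irx2 in in vivo AKP against organoid AKP, near 0 throughout, changed sign with RLE factors (0.0073), DESeq2 (0.042), identifiers with a symbol only (0.013), the libraries compared alone (0.0036) and the letter F alone (0.47), and ranged from -0.18 to 0.24 with a library left out. Irx4 changed sign in #i against organoid AKP with limma-voom (-0.16) and, with a library left out, ranged from -3.46 to 0.69 there, from -1.42 to 0.022 in in vivo AKP against control and from -1.82 to 2.84 in #v against #i; its low counts leave the sign unset. Irx4 in organoid AKP against control passed with limma-voom (adjusted p = 0.0374) and with the libraries compared alone (0.0235). The cause of these changes was not tested. Same-numbered replicates did not deviate together in every pair (r of 0.07 to 0.38 in in vivo AKP against organoid AKP, -0.027 to 0.044 within letters), so the numbers were not taken as pairing; a replicate block gave Irx5 0.36 in in vivo AKP against organoid AKP (adjusted p = 0.143). Each sample correlated best with its own number in #ii and #iii. Replicates 1 to 3 were E in in vivo AKP, organoid AKP and control but F in #iv and #v. A block by number therefore joined libraries of different letters for those mini-colon lines, and its part in their changes was not tested.

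Counts of genes called across the table moved by over 1.5 times with the replicate block against organoid AKP in #i (387 against 973), #iii (1203 against 2210), #iv (3259 against 667) and #v (3938 against 1440), with F alone in #iv (1725) and #v (3680), with the libraries compared alone in #v against #i (5861 against 3327), and in the F test over the E lines alone (3364) and the F lines alone (2517) against 6349 over all 5. With 1 library left out they moved as far as 222 and 1717 in #i, 2003 in #ii (3350 in all), 971 in #iii, 309 in #iv, 690 in #v, 2049 in #v against #i and 1991 between letters in control (3014 in all). The share of higher genes among those called moved from 45.9% to 27.3% in #iii with library totals, from 43.4% to 59.6% in #i with limma-voom, and between letters to 42.3% in control and 37.6% in organoid AKP with library totals, against 61.6% and 49.4%. No setting moved the median of all genes by over 0.1 on the log2 scale. In 15 cases DESeq2 gave no adjusted p. Depth limits Irx1, Irx2, Irx4 and Irx6 to levels near 1 count per library.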
